A study of Mus musculus with 153 samples.

Results

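The comparison described here is between mice that received a shock in a new context (shock) and mice placed in that context without a shock (box), in the ribosome-bound RNA of Camk2a neurons of the dorsal hippocampus, in the set labelled 15 min. It was formed from the purified-fraction columns of the Camk2a count table at that time, 4 labelled shock and 3 labelled box, which make 7 of the 153 samples of the series. All of these mice, and 3 home cage mice sequenced in the same table, carry the genotype Camk2a.Cre/TRAPfl, and the labels give neither their age nor their sex. From each numbered mouse of the table there is also a lysate library, which holds polyA RNA of every cell of the tissue. The submitters describe the replicates as biological, and p-values refer to the spread among them.

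The Camk2a promoter drives Cre in excitatory neurons of the forebrain, and the floxed TRAP allele then tags their ribosomes, so that the mRNA they carry can be purified from the tissue. Neuronal firing switches on a small set of genes within minutes. Their products include the transcription factors Fos, Fosb, Junb, Npas4 and Egr1 and the synaptic protein Arc. A slower set, among them the neurotrophin Bdnf, follows, and both sets are known from contextual fear learning. A shocked mouse and a box mouse both explore the same new place, so the contrast between them addresses what the shock adds to the novelty.

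The purified libraries held 9043042 to 119071630 counts and the lysates 16392725 to 50285697. The shallowest is shock replicate 4, with 13355 genes detected, against 13837 to 14705 in the other shock libraries and 14096 to 14600 in the box libraries. This library also stood apart in its values: it was the highest of the 10 purified libraries for 3321 of 14542 tested genes (22.8%), so results that rest on it are given with and without it. In bulk RNA fewer cells of a type and less RNA per cell cannot be told apart. The purified fraction matched its label in general markers of excitatory neurons, but not in those of dentate granule cells. Nrgn, which binds calmodulin in the dendrites of excitatory cells, averaged 3121 ± 838 CPM (counts scaled to the total of a library) in purified libraries and 932 ± 190 CPM in lysates (SD, n = 10 each), and 13 of 14 markers of pyramidal and granule neurons had higher levels in the purified libraries. Of the CA1 markers 5 of 7 were higher there, and of the CA2 and CA3 markers 6 of 9. Of the dentate granule cell markers only 5 of 10 were, with a median of -0.0006 (log2). All 14 astrocyte and all 13 microglia markers were lower in the purified libraries than in the lysates, with medians of -3.15 and -3.20 on the log2 scale. By the Y-linked genes, 3 of 4 shock mice, 1 of 3 box mice and 2 of 3 home cage mice were male, so shock and box are not balanced for sex. The purified and lysate libraries of the same number gave the same sex in 10 of 10 cases.

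No gene differed between shock and box past the threshold. In edgeR's quasi-likelihood test, fitted over the 10 purified libraries with an adjusted p under 0.05 as the threshold, 0 of 14542 genes were called (0%), with a smallest adjusted p of 0.541. At an unadjusted p under 0.05 there were 1336 genes (9.19%), of which 780 (5.36%) were higher and 556 (3.82%) lower in shock libraries. Without shock replicate 4 the test again called 0 genes, and 733 had an unadjusted p under 0.05. With the called sex as a covariate it also called 0, and 634 genes (4.36%) had an unadjusted p under 0.05. DESeq2 called 31 genes, 18 higher and 13 lower (0.213%), almost all of them near the limit of detection. The 4 shock and 3 box values did not overlap for 841 genes (5.78%), 455 of them higher (3.13%) and 386 lower (2.65%) after shock. The precision varied with the level, with a median SE of 2.10 (log2) for genes averaging under 1 CPM and of 0.23 for the 2167 genes at 100 CPM or more.

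**Figure D1:**
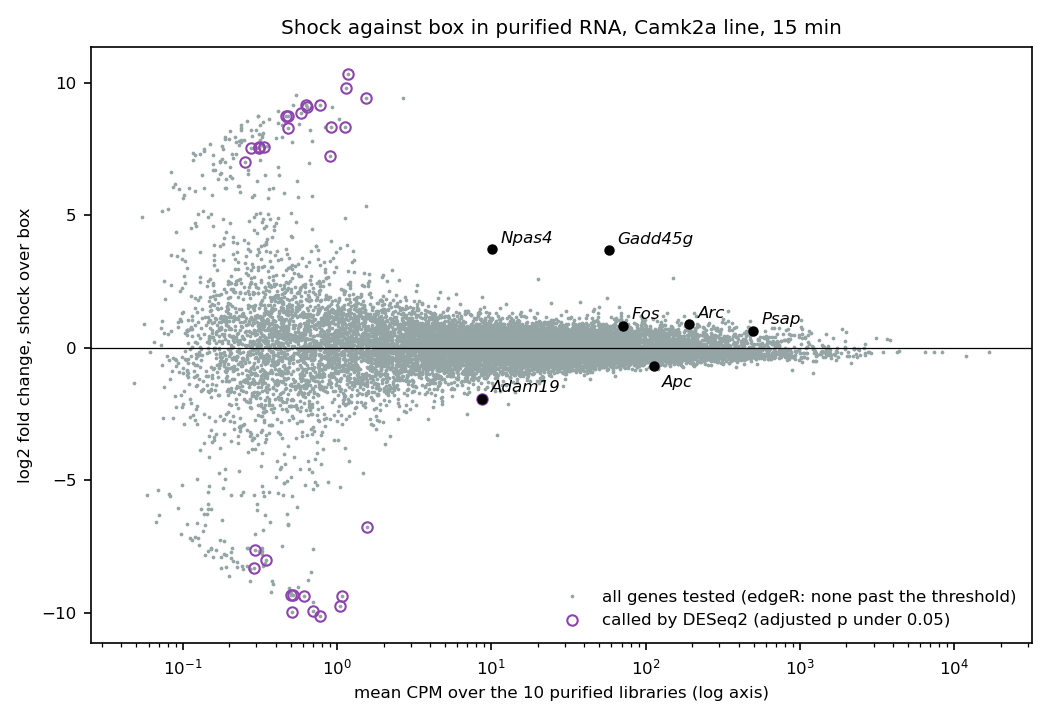
Each grey point is a tested gene, with its mean level over the 10 purified libraries on the horizontal log axis (CPM) and its log2 fold change of shock over box on the vertical axis. Open circles are the 31 genes called by DESeq2, of which 1, Adam19, averaged 5 CPM or more, and black points are genes described in the text.

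The genes of the rapid activity programme held large differences between single animals. To show what kind of promoter they have, 160 of the bases before the start are printed for 3 genes on which the comparison turns, from RefSeq (GRCm38.p6). Fos lies on the plus strand at chr12:85473730-85473889, Btg2 on the minus strand at chr1:134079196-134079355 and Npas4 on the minus strand at chr19:4990012-4990171. Capitals mark TGACG or its reverse complement CGTCA, the core of the cAMP response element that CREB binds; where they overlap they make the palindrome TGACGTCA, as in Btg2.
Fos: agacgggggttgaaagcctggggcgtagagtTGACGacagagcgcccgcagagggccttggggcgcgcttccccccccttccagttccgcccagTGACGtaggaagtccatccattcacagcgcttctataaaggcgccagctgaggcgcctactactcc
Btg2: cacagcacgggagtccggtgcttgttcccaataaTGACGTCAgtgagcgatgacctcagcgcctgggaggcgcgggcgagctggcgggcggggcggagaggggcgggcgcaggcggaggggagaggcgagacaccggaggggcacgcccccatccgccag
Npas4: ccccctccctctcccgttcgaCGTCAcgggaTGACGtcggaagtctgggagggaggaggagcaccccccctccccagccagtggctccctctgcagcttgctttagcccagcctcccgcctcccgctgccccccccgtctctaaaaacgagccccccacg
The core was present on either strand in the 250 bases before a listed start for 17 of the 26 rapid activity genes with a RefSeq window (65.4%), of 34 listed, against 3200 of 10701 tested genes with a window (29.9%). The palindrome was present for 3 of the 26 (11.5%), against 319 of the 10701 (2.98%). These matches describe the letters of the windows and are not binding sites.

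Fos, the transcription factor used most often to mark active neurons, had 41.1, 44.0, 40.0 and 353 CPM in shock libraries 1 to 4, against 31.3, 84.5 and 74.4 CPM in box libraries. The first 3 shock libraries thus lay within the range of the box libraries, and replicate 4 far above it. The log2 fold change was 0.84 ± 0.73 (SE; 95% interval -0.76 to 2.44; edgeR adjusted p = 0.73), and without shock replicate 4 it was -0.59. Both groups were above the home cage mice, which had 18.7, 9.18 and 16.8 CPM. Btg2, an antiproliferative gene of the same programme, had 20.9, 16.6, 20.3 and 388 CPM in shock libraries, against 21.0, 34.4 and 29.4 CPM in box libraries and 11.2, 5.64 and 13.8 CPM in home cage libraries. Replicate 4 was again far above the box range, while the other 3 shock libraries were below every box library. Its log2 fold change was 1.90 ± 1.06 with all libraries and -0.54 without shock replicate 4.

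Npas4, a transcription factor induced by depolarisation in neurons, was the rapid gene with the smallest p. It was the only 1 of the 34 whose shock and box values did not overlap, where 455 of all 14542 genes (3.13%) were higher without overlap. It had 2.80, 4.58, 3.28 and 83.4 CPM in shock libraries, against 1.41, 1.45 and 2.09 CPM in box libraries and 0.457, 0.768 and 1.04 CPM in home cage libraries. The log2 fold change was 3.73 ± 1.13 (adjusted p = 0.541) and 1.11 without shock replicate 4. Fosb, a partner of Jun proteins, had 3.10, 6.30, 9.68 and 41.8 CPM in shock libraries, against 1.83, 6.16 and 3.35 CPM in box libraries, and Junb had 63.4, 115, 108 and 667 CPM in shock libraries, against 56.4, 92.8 and 121 CPM in box libraries. For Junb only replicate 4 was above every box library. For Fosb replicates 2 and 3 were also above the highest box library, replicate 2 by a small margin. The log2 fold change of Fosb was 1.94 ± 0.74 and that of Junb 1.32 ± 0.67, and without replicate 4 they were 0.76 and 0.08.

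Gadd45g, a stress-inducible regulator of cell growth and DNA demethylation, had 11.1, 9.65, 23.5 and 482 CPM in shock libraries, against 6.73, 13.0 and 9.15 CPM in box libraries. Here too only replicate 4 was far from the rest, and the log2 fold change of 3.69 ± 1.37 was 0.62 without it. Arc, whose protein shapes glutamate receptor trafficking, was spread more evenly, with 178, 345, 170.2 and 526 CPM in shock libraries, against 161, 182 and 129.6 CPM in box libraries and 89.2, 52.0 and 87.4 CPM in home cage libraries. Replicates 2 and 4 were above every box library and replicates 1 and 3 were among them. The log2 fold change of Arc was 0.89 ± 0.35 (95% interval 0.14 to 1.65, adjusted p = 0.541) and 0.55 without shock replicate 4.

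Other members of the programme did not share this pattern in purified RNA. Egr1, a zinc finger factor, had 243, 317, 311 and 387 CPM in shock libraries, against 269.6, 478 and 284 CPM in box libraries and 181, 219 and 170.1 CPM in home cage libraries. Nr4a1, an orphan nuclear receptor, had 62.8, 74.1, 54.3 and 65.9 CPM in shock libraries, against 58.0, 81.0 and 77.5 CPM in box libraries and 32.6, 44.5 and 36.2 CPM in home cage libraries. The groups overlapped for both, with log2 fold changes of -0.17 ± 0.22 (95% interval -0.65 to 0.31) for Egr1 and -0.21 ± 0.21 (95% interval -0.66 to 0.23) for Nr4a1. With offsets for GC content and length, described further on, they were -0.54 ± 0.20 for Egr1 and -0.57 ± 0.22 for Nr4a1, both at an unadjusted p under 0.05 and at an adjusted p of 0.825 in edgeR. All 7 shock and box libraries were above all 3 home cage libraries for both genes. The phosphatase gene Dusp1, a brake on MAP kinases, had a log2 fold change of 0.19 ± 0.37, and the scaffold gene Homer1 one of -0.21 ± 0.18. In the shock lysates, however, replicate 4 stood far above the others for Egr1, at 622 CPM, and for Dusp1, at 236 CPM.

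Of the 34 rapid activity genes, 24 had a higher fitted level in shock libraries, with a median log2 fold change of 0.57, against -0.02 over all 14542 genes. At an unadjusted p under 0.05 were 6 of the 34 higher and 0 lower, against 5.36% higher and 3.82% lower over all genes. Shock replicate 4 was the highest of the 10 purified libraries for 17 of the 34, against 22.8% of all genes. Without it 18 of the 33 genes then tested were higher, the median was 0.08 against 0.03 over all genes, and 0 had an unadjusted p under 0.05 in either direction. The mean log2 CPM of the list was 3.43, 3.54, 3.55 and 5.06 in shock libraries, against 3.26, 3.72 and 3.29 in box libraries and 2.76, 2.64 and 2.88 in home cage libraries. Replicates 1 to 3 of the shocked mice thus stood among the box libraries, and every one of the 7 was above every home cage library.

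The lysate of shock replicate 4 held the same excess. Fos had 38.1, 46.6, 37.2 and 462 CPM in shock lysates, against 28.0, 59.2 and 52.6 CPM in box lysates. Npas4 had 3.83, 6.29, 6.14 and 179 CPM in shock lysates, against 3.62, 6.79 and 5.25 CPM in box lysates. Egr2, a further zinc finger factor, had 5.17, 6.89, 5.74 and 134 CPM in shock lysates, against 6.23, 12.4 and 11.3 CPM in box lysates. Shock replicate 4 was thus high in both fractions, while the other 3 shock lysates lay within or near the range of the box lysates for these genes. Of the 34 rapid activity genes 23 were higher in shock lysates, with a median of 0.22, against 7496 of 15253 genes and a median of -0.0057 over all. The mean log2 CPM of the list was 3.75, 3.805, 4.12 and 5.17 in shock lysates, against 3.71, 4.16 and 4.15 in box lysates. The list was not recomputed in the lysates without replicate 4. What sets replicate 4 apart was not tested.

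**Figure D2:**
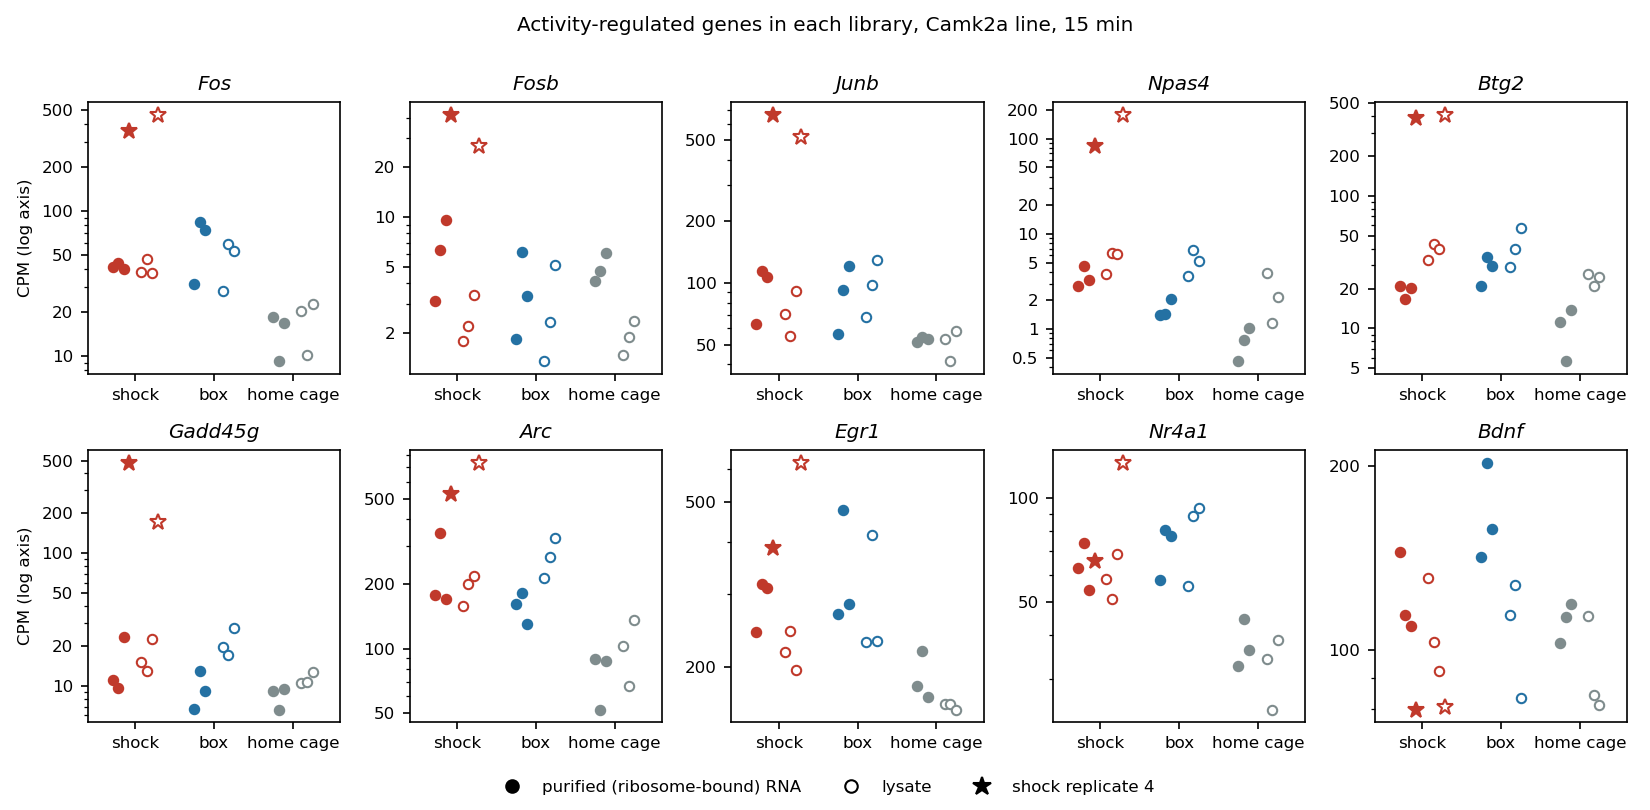
Each panel shows 1 gene in every Camk2a library of the 15 min set, in CPM on a log axis, with shock left, box in the middle and home cage right. Filled points are purified libraries, open points lysates, and stars mark shock replicate 4, which is above all other libraries in both fractions for Fos, Fosb, Junb, Npas4, Btg2, Gadd45g and Arc.

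The slower activity programme held more genes with lower than with higher fitted levels. Of 28 delayed activity genes, 9 were higher and 19 lower in shock libraries, with a median log2 fold change of -0.20. At an unadjusted p under 0.05 were 5 lower and 1 higher, against 3.82% lower and 5.36% higher over all genes. Without shock replicate 4, 13 of 28 were higher and the median was -0.12, and with the GC and length offsets as well 14 of 28 were higher and the median was -0.00052. Without shock replicate 2 and no offsets the median was -0.13, and without shock replicate 1 or box replicate 1 it was -0.30. Bdnf, the neurotrophin that strengthens synapses, had 145, 114, 109 and 79.7 CPM in shock libraries, against 142, 203 and 158 CPM in box libraries and 102, 113 and 119 CPM in home cage libraries. The shock libraries were at the level of the home cage libraries, and 3 of the 4 were below every box library. Its log2 fold change was -0.62 ± 0.22 (95% interval -1.09 to -0.14, adjusted p = 0.541) and -0.44 without shock replicate 4. In the lysates Bdnf had 131, 103, 92.4 and 80.5 CPM after shock, against 114, 128 and 83.1 CPM in box mice, a log2 fold change of -0.06 ± 0.22. Kcna1, a voltage-gated potassium channel subunit, had 300.2, 191, 219 and 118 CPM in shock libraries, against 305, 366 and 281 CPM in box libraries. Its groups overlapped, and its log2 fold change was -0.65 ± 0.27.

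Lists of steroid, stress, MAP kinase feedback and clock genes had medians between -0.18 and 0.18, against -0.02 over all genes. Of 23 tested glucocorticoid-induced genes 8 were higher in shock libraries, with a median of -0.11 and 0 at an unadjusted p under 0.05. Fkbp5, which restrains the glucocorticoid receptor, had 51.6, 49.3, 45.7 and 51.4 CPM in shock libraries, against 46.9, 37.2 and 36.7 CPM in box libraries, and Sgk1, a kinase induced by corticosteroids, had 42.4, 28.0, 39.7 and 59.7 CPM in shock libraries, against 30.4, 38.2 and 34.5 CPM in box libraries. Their log2 fold changes were 0.25 ± 0.20 and 0.26 ± 0.25. Of the 19 cytosolic heat shock genes 6 were higher (median -0.18), of the 18 chaperone genes of the endoplasmic reticulum 6 (median -0.06) and of the 17 MAP kinase feedback genes 7 (median -0.10), none of them at an unadjusted p under 0.05. Over all genes 5.36% were higher and 3.82% lower at that p, shares at which lists this short would hold few such members. Among 23 ATF4 stress response genes 15 were higher (median 0.18) and 1, the seryl-tRNA synthetase gene Sars, had an unadjusted p under 0.05. Sars had 87.5, 113, 99.2 and 123 CPM in shock libraries, against 71.5, 66.8 and 62.4 CPM in box libraries, without overlap, and a log2 fold change of 0.61 ± 0.19 (adjusted p = 0.541). Of 20 clock genes 8 were higher (median -0.17), with 2 lower and 0 higher at an unadjusted p under 0.05. For 2 of the 20 the shock values were lower without overlap, against 2.65% of all genes.

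The genes with the smallest p among those whose groups did not overlap were mostly abundant genes of moderate difference. Psap encodes prosaposin, the precursor of lysosomal sphingolipid activators, and had 603, 637, 473 and 760.5 CPM in shock libraries, against 403, 391.9 and 349 CPM in box libraries and 406, 477 and 442 CPM in home cage libraries. All 4 shock libraries were above all 3 box libraries, and the log2 fold change was 0.65 ± 0.18 (95% interval 0.26 to 1.04, adjusted p = 0.541). Unc45a, a co-chaperone of myosin folding, had 8.38, 12.1, 10.5 and 19.4 CPM in shock libraries, against 5.69, 4.46 and 4.404 CPM in box libraries, a log2 fold change of 1.31 ± 0.38. Pik3r2, a regulatory subunit of PI 3-kinase, had 84.8, 125, 132 and 145 CPM in shock libraries, against 66.0, 76.6 and 60.0 CPM in box libraries, a log2 fold change of 0.80 ± 0.23. The home cage libraries of Unc45a and Pik3r2 were below every shock library, while 1 home cage library of Psap was within the shock range.

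Uqcrc1, a core subunit of respiratory complex III, had 346, 365, 251 and 496 CPM in shock libraries, against 223, 226 and 184 CPM in box libraries, a log2 fold change of 0.74 ± 0.22. Arhgdia had 196, 267, 311 and 439.8 CPM in shock libraries, against 189.5, 174 and 137 CPM in box libraries, a log2 fold change of 0.81 ± 0.24. The highest box value of Arhgdia was just under the lowest shock value. Etfb, a subunit of the mitochondrial electron transfer flavoprotein, Polr2c, a subunit of RNA polymerase II, Vps51, a subunit of vesicle tethering complexes, Sgta, a co-chaperone of membrane protein targeting, Matk, a kinase that restrains Src, and Wdr18 had log2 fold changes of 1.17, 0.75, 0.91, 0.73, 0.996 and 0.81. Replicate 4 was the highest shock library for all 11 of these genes, and without it their log2 fold changes were between 0.58 for Psap and 1.09 for Unc45a. That they stayed higher was all but fixed by the choice of genes whose groups did not overlap. The remaining gene by this rule, Serpinb1b, a protease inhibitor, had 1.23, 0.930, 0.841 and 2.21 CPM in shock libraries, against 0.0168, 0 and 0 CPM in box libraries, but 0.725, 2.87 and 0.224 CPM in home cage libraries.

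Among the lower genes, Adam19, a membrane metalloprotease, had 2.65, 3.75, 6.23 and 1.77 CPM in shock libraries, against 18.6, 10.6 and 10.7 CPM in box libraries and 11.1, 9.76 and 12.3 CPM in home cage libraries. Every shock library was below every other purified library. Its log2 fold change was -1.92 ± 0.42 (95% interval -2.83 to -1.004), with an adjusted p of 0.541 by edgeR and 0.0193 by DESeq2. In the lysates Adam19 had 9.99, 14.5, 4.26 and 6.58 CPM after shock, against 13.4, 10.2 and 8.66 CPM in box mice, a log2 fold change of -0.26 ± 0.35. Apc, a scaffold of the beta-catenin destruction complex, had 93.3, 75.3, 103 and 81.8 CPM in shock libraries, against 139, 136 and 143 CPM in box libraries and 115, 114 and 130.3 CPM in home cage libraries, a log2 fold change of -0.70 ± 0.18. Picalm, an adaptor of clathrin-mediated endocytosis, had 91.5, 66.9, 115 and 91.2 CPM in shock libraries, against 125, 158 and 180.4 CPM in box libraries, a log2 fold change of -0.80 ± 0.22. For Apc the home cage libraries lay between the groups, and for Picalm they overlapped the shock and the box range.

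Ptpn4, a tyrosine phosphatase, had 31.8, 27.3, 26.4 and 26.3 CPM in shock libraries, against 37.7, 57.3 and 58.7 CPM in box libraries, a log2 fold change of -0.92 ± 0.23. Yipf6, a membrane protein of the Golgi, had 35.3, 33.7, 44.3 and 30.3 CPM in shock libraries, against 57.6, 60.1 and 62.5 CPM in box libraries and 62.5, 55.3 and 54.5 CPM in home cage libraries, a log2 fold change of -0.79 ± 0.20. Lyrm1, Fpgt and Fam199x had log2 fold changes of -1.05, -1.14 and -1.47. Without shock replicate 4 the log2 fold changes of these 8 genes were between -0.62 for Apc and -1.68 for Adam19. Their direction was all but fixed by the choice of genes whose groups did not overlap. Efcab7 had 0.0519, 0, 0 and 0 CPM in shock libraries, against 1.07, 2.26 and 3.74 CPM in box libraries and 1.64, 2.08 and 4.79 CPM in home cage libraries. Its shock libraries were at or near 0, while the shock lysates held 4.64, 2.65, 2.38 and 0.531 CPM. Spata19, Ankrd22 and Slc25a2 were at 0 in all 4 shock libraries and between 0.223 and 2.79 CPM in the box libraries.

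**Figure D3:**
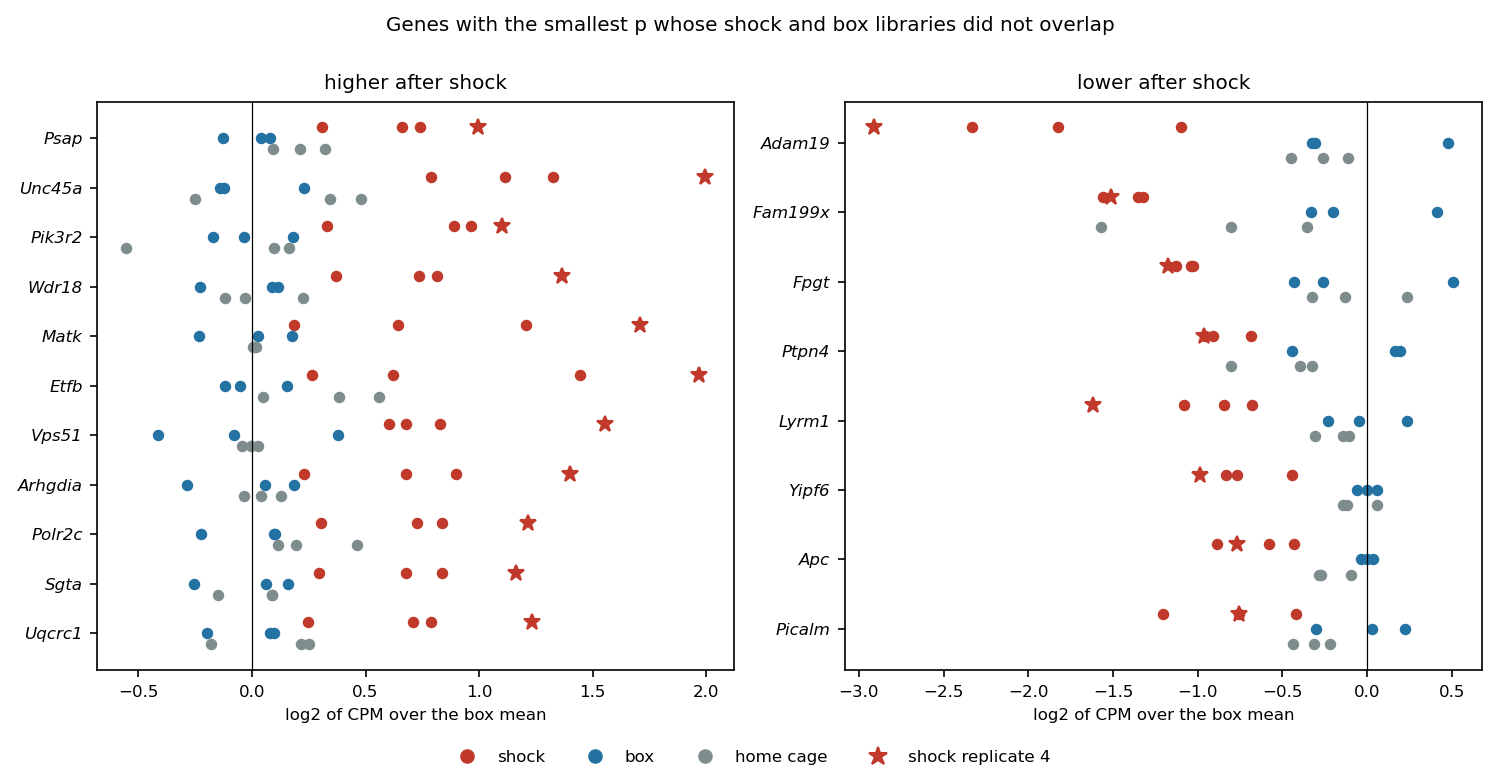
Points are purified libraries, placed by the log2 of their CPM over the mean CPM of the box libraries, for the 11 higher genes (left) and the 8 lower genes (right) with the smallest p, no overlap between shock and box, and more than traces in both groups. Within each gene the shock libraries are the upper row, the box libraries the middle row and the home cage libraries the lower row, and stars mark shock replicate 4.

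Among the genes of ribosomes and energy production, more members had higher than lower fitted levels after shock, with 0 past the threshold. Of 84 cytosolic ribosomal protein genes 62 were higher in shock libraries, with a median log2 fold change of 0.35. At an unadjusted p under 0.05 were 28 higher and 0 lower, against 5.36% higher and 3.82% lower over all genes. Shock replicate 4 was the highest of the 10 libraries for 43 of the 84, against 22.8% of all genes. Without it 77 of 84 were higher with a median of 0.34, but only 13 were higher and 0 lower at that p, against 5.08% of all genes in either direction. Without it and with the GC and length offsets, 7 were higher and 0 lower at that p, against 3.92% of all genes. Leaving out box replicate 1 gave a median of 0.68, and leaving out any other single shock or box library gave 0.24 to 0.44. Fau, which encodes ribosomal protein S30 fused to a ubiquitin-like protein, had 47.0, 65.6, 142 and 188 CPM in shock libraries, against 53.0, 42.7 and 31.3 CPM in box libraries. Rps14, a protein of the small subunit, had 272, 425, 536 and 652 CPM in shock libraries, against 333, 221 and 160.1 CPM in box libraries. Shock replicate 1 overlapped the box range in both genes, and the log2 fold changes were 1.33 ± 0.40 and 0.94 ± 0.29. Values of ribosomal protein genes are uncertain, since they have many near-identical pseudogenes and the sources used here do not say how shared reads were counted.

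Of 37 genes of respiratory complex I, which passes electrons from NADH to ubiquinone, 23 were higher (median 0.21), 7 of them and 0 lower ones at an unadjusted p under 0.05. The shares over all tested genes at that p were 5.36% higher and 3.82% lower. Ndufa11 had 214, 318, 544 and 792 CPM in shock libraries, against 235, 226 and 175 CPM in box libraries, a log2 fold change of 1.09 ± 0.34. Of 41 genes of complexes II to V 25 were higher (median 0.22), 9 of them at that p and 0 lower. Atp5d, a subunit of the ATP synthase, had 243, 367, 525 and 823 CPM in shock libraries, against 268, 244 and 196 CPM in box libraries. In both genes replicate 1 lay within the box range and the other 3 shock libraries above it. Without shock replicate 4, 5 complex I genes and 4 genes of complexes II to V were higher and 0 lower at that p. All genes at that p were then 5.08% in either direction. With the offsets as well, 0 complex I genes were at that p, and 2 of complexes II to V were higher and 1 lower. Leaving out single libraries gave medians of 0.11 to 0.43 for complex I, highest without box replicate 1 and lowest without box replicate 3, and under 0.15 without shock replicate 1, shock replicate 2 or box replicate 2. For complexes II to V they were 0.12 to 0.41, highest without box replicate 1, lowest without box replicate 2 and 0.14 without shock replicate 2. Of 39 proteasome subunit genes 23 were higher (median 0.08), 6 higher and 1 lower at that p. Psmd4, a ubiquitin receptor of the proteasome, had 110.1, 171, 131 and 227 CPM in shock libraries, against 106, 89.9 and 78.3 CPM in box libraries, without overlap.

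Lists of translation regulators had members on either side. Of 58 translation factor genes 27 were higher (median -0.04), 7 higher and 2 lower at an unadjusted p under 0.05. Of all tested genes 5.36% were higher and 3.82% lower at that p. Eif3d, a cap-binding subunit of initiation factor 3, had 29.5, 47.1, 37.5 and 51.3 CPM in shock libraries, against 28.5, 23.7 and 21.0 CPM in box libraries, a log2 fold change of 0.71 ± 0.25. Eif5, which triggers GTP hydrolysis at the start codon, had 439.7, 268, 374 and 249 CPM in shock libraries, against 406, 547 and 521 CPM in box libraries, a log2 fold change of -0.60 ± 0.23. Of 34 FMRP and CPEB translation regulators 24 were lower (median -0.18), 3 of them at that p and 0 higher ones. The RNA helicase gene Ddx6, a component of translational repression complexes, had 75.2, 56.2, 94.7 and 45.8 CPM in shock libraries, against 110.2, 92.9 and 124 CPM in box libraries, a log2 fold change of -0.72 ± 0.27. Of 49 mTOR pathway genes 27 were higher (median 0.09), 2 higher and 4 lower at that p.

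Lists of synaptic genes had medians between -0.19 and 0.09, with single members on either side. Of 23 AMPA and NMDA receptor genes 8 were higher (median -0.09). Grin1, the obligatory NMDA receptor subunit, had 65.3, 105, 128 and 128 CPM in shock libraries, against 78.7, 54.0 and 32.8 CPM in box libraries, a log2 fold change of 0.90 ± 0.30. Of 14 kainate and metabotropic glutamate receptor genes 5 were higher (median -0.15). At an unadjusted p under 0.05 were 2 higher and 3 lower, against 5.36% higher and 3.82% lower over all genes. Neto1, an auxiliary subunit of kainate receptors, had a log2 fold change of -0.78 ± 0.32. Of 30 postsynaptic scaffold genes 16 were higher (median 0.08). Lrrtm2, a synaptic adhesion protein, had 36.1, 28.6, 35.7 and 38.5 CPM in shock libraries, against 31.3, 68.8 and 72.7 CPM in box libraries. The groups overlapped only through the box library of replicate 1.

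Of 19 GABA-A receptor genes 14 were lower (median -0.19), but without shock replicate 4 the median was 0.01. Potassium channel genes were higher in 21 of 48 (median -0.05), and Kcna2, which assembles with Kcna1, had 339.5, 190.3, 269 and 205 CPM in shock libraries, against 386, 415 and 331 CPM in box libraries. Without shock replicate 4 the medians of the AMPA and NMDA receptor genes, potassium channel genes, CaM kinase genes, translation factor genes and chaperone genes of the endoplasmic reticulum were above 0, between 0.02 and 0.04. Of 42 synaptic vesicle release genes 19 were higher (median -0.05), and of 30 genes of sodium, calcium and HCN channels 15 (median 0.02, and -0.04 without shock replicate 4). Among 23 CaM kinase genes, which include their partners, 9 were higher (median -0.08). Camk2a itself had 789, 959.9, 593 and 589 CPM in shock libraries, against 970.0, 499 and 399 CPM in box libraries, a log2 fold change of 0.19 ± 0.28. Pcp4, a calmodulin regulator, had 1297, 745, 871 and 563 CPM in shock libraries, against 829, 2236 and 1857 CPM in box libraries, a log2 fold change of -0.95 ± 0.33. Rcan2, an inhibitor of calcineurin, had 54.8, 37.0, 40.7 and 35.6 CPM in shock libraries, against 45.6, 146 and 66.3 CPM in box libraries, a log2 fold change of -1.06 ± 0.32. CREB and its cofactors were higher for 13 of 25 (median 0.03), cholesterol synthesis genes for 11 of 21 (median 0.01) and monoamine and acetylcholine receptor genes for 18 of 30 (median 0.09).

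**Figure D4:**
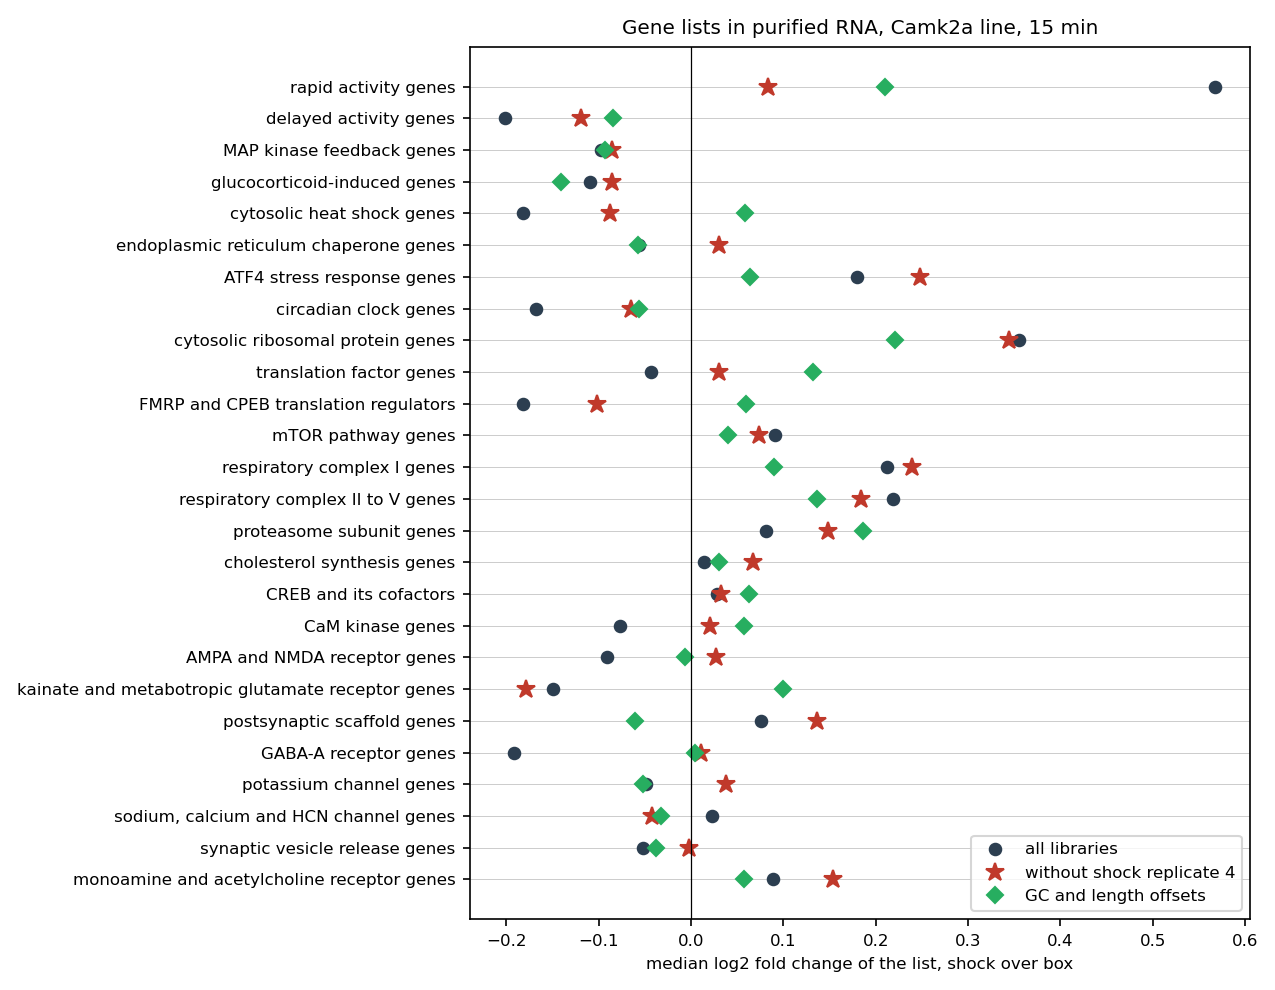
For each of 26 gene lists the median log2 fold change of shock over box in purified RNA is shown with all libraries (dark circles), without shock replicate 4 (red stars) and with offsets for GC content and length (green diamonds). The rapid activity genes have medians of 0.57, 0.08 and 0.21 and the cytosolic ribosomal protein genes 0.35, 0.34 and 0.22 under these settings.

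The differences followed the base composition of the transcripts. Divided by GC content into 4 classes of equal size, the tested genes had median log2 fold changes of -0.28, -0.13, 0.08 and 0.44 from the lowest to the highest class, and without shock replicate 4 of -0.18, -0.05, 0.09 and 0.30. The trend of log2 CPM over GC content, per 10 points of GC, was -0.17, 0.22, 0.24 and 0.59 in shock libraries, against -0.0088, -0.20 and -0.39 in box libraries and -0.12, -0.11 and -0.05 in home cage libraries. Its means of 0.22 ± 0.31 after shock and -0.20 ± 0.19 in box libraries (SD, n = 4 and 3) were compared by an exact two-sided permutation test over 35 splits, with p = 0.0857, where the smallest p possible is 0.0286. As examples picked from the leading genes, Pik3r2 and Arhgdia, both with higher levels after shock, have 61.4% and 60.7% GC. Ptpn4 and Fpgt, both with lower levels, have 38.4% and 39.5%. The GC content of the other leading genes is not given here. With an offset for GC content and length in the same edgeR fit, 838 genes had an unadjusted p under 0.05, 542 of them shared with the 1336 found without offsets, and 0 were called (smallest adjusted p 0.825).

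Under these offsets the log2 fold change of Psap was 0.41, of Unc45a 0.86, of Adam19 -1.96, of Fpgt -0.75 and of Bdnf -0.29. Of the 11 leading higher genes, those under 0.5 of their fold change without offsets (log2) were Pik3r2 at 0.25, Matk at 0.47, Vps51 at 0.38, Arhgdia at 0.23 and Sgta at 0.23. So were others of the genes described, among them Fau at 0.58, Ndufa11 at 0.49, Atp5d at 0.39, Arc at 0.39, Ptpn4 at -0.43 and Apc at -0.34. The ribosomal protein genes were higher for 71 of 84 (median 0.22), complex I genes for 25 of 37 (median 0.09), genes of complexes II to V for 26 of 41 (median 0.14) and proteasome genes for 27 of 39 (median 0.19). The medians of the heat shock, translation factor, CaM kinase, and kainate and metabotropic receptor genes were above 0 with the offsets, and those of the postsynaptic scaffold genes and of the sodium, calcium and HCN channel genes below 0. The FMRP and CPEB regulators were then higher for 19 of 34 (median 0.06), the delayed activity genes for 13 of 28 (median -0.08) and the rapid activity genes for 23 of 34 (median 0.21). Of the rapid activity genes 2 were higher and 2 lower at an unadjusted p under 0.05 with the offsets, against 6 higher and 0 lower without them. Over all 14542 genes 438 were higher and 400 lower at that p with the offsets. Without shock replicate 4 and with the offsets, 15 of 33 rapid activity genes were higher (median -0.07). The part of base composition in each of these differences was not tested beyond these fits.

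**Figure D5:**
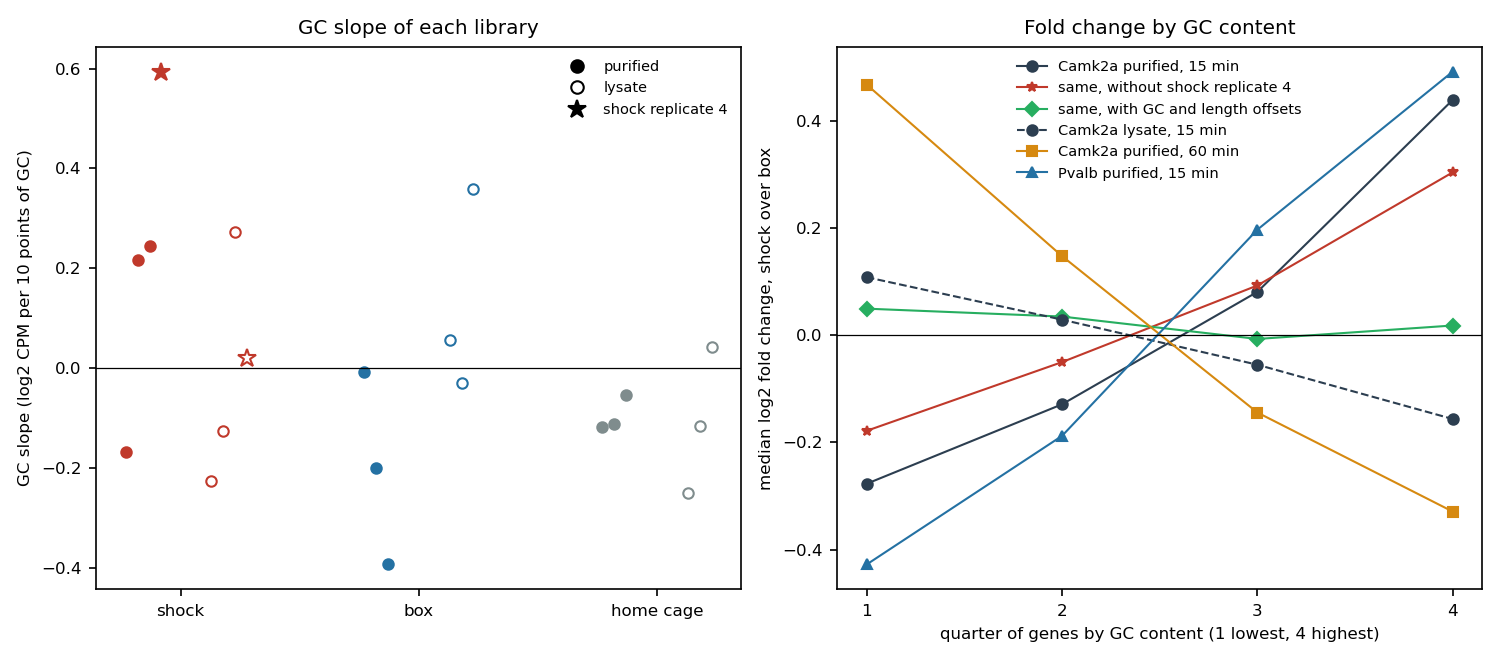
Left, the trend of log2 CPM over GC content in each library of the Camk2a 15 min set (per 10 points of GC), with shock left, box in the middle and home cage right. Right, the median log2 fold change of shock over box in 4 equal classes of the tested genes by GC content, which runs from -0.28 to 0.44 in the purified Camk2a RNA at 15 min and in the opposite order in the lysates and at 60 min.

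The genes that DESeq2 called were almost all at the limit of detection. Of the 31, 22 had 0 counts in at least 5 of the 10 purified libraries, 13 drew over 50% of their summed CPM from a single library, and 10 had shock and box values that did not overlap. Lepr, the leptin receptor, had 3.18 CPM in shock replicate 1 and 0 in the other 3 shock libraries and in all box libraries, and 0.994, 1.63 and 0 CPM in home cage libraries. Trim21, an intracellular antibody receptor, was at 0 in all shock libraries and in box replicates 1 and 2, with 3.31 CPM in box replicate 3. Scin, an actin-severing protein, was found in shock replicates 1 and 2, at 2.91 and 0.999 CPM, and in home cage replicate 3, at 2.41 CPM. Reads without molecular identifiers are not independent molecules, so counts of such genes need not be as many molecules.

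Summed levels of markers of other cell types overlapped between shock and box libraries. For glia they were far below the lysates. CGE interneuron markers summed to 913 to 1705 CPM in purified libraries, against 805 to 997 CPM in lysates. Yet only 2 of these 12 markers were higher in the purified libraries. edgeR called 7 of the 12 lower there than in lysates, and the median was -1.54 (log2). The choroid plexus and ependyma markers were higher after shock for 11 of 11 (median 1.03, and 1.41 without shock replicate 4, which had the lowest sum), with summed levels of 48.4 to 440.3 CPM in shock libraries, against 78.0 to 186 CPM in box libraries and 84.3 to 1199 CPM in home cage libraries. Ttr, the transthyretin of the choroid plexus, had 190.1, 249, 181 and 8.07 CPM in shock libraries, against 10.8, 54.5 and 10.04 CPM in box libraries, and 1570.2, 2446, 1451 and 28.6 CPM in shock lysates, against 32.6, 336 and 65.8 CPM in box lysates. Astrocyte markers were lower after shock for 11 of 14 (median -0.34, and -0.29 without shock replicate 4), with sums of 657 to 923 CPM in shock libraries, against 695 to 1198 CPM in box libraries. Gfap, the filament protein of astrocytes, had 26.1, 40.5, 22.0 and 15.9 CPM in shock libraries, against 27.3, 92.1 and 54.5 CPM in box libraries, a log2 fold change of -1.18 ± 0.38. Markers of GABA neurons were lower for 6 of 11 (median -0.43, and -0.21 without shock replicate 4), and their sums were 118 to 171 CPM in shock libraries, against 103 to 253 CPM in box libraries. Vip, a peptide of interneurons, had 0.450, 1.69, 1.43 and 6.86 CPM in shock libraries, against 0.621, 50.2 and 17.2 CPM in box libraries, a log2 fold change of -3.28 ± 1.11. Markers of dentate granule cells were lower for 8 of 10 (median -0.28, and -0.29 without shock replicate 4) and those of pyramidal and granule neurons higher for 9 of 14 (median 0.14, and 0.27 without shock replicate 4). Leaving out each shock or box library in turn gave medians of 0.62 to 1.41 for choroid plexus, -0.62 to -0.17 for astrocytes, -0.70 to -0.06 for GABA neurons, -0.56 to -0.17 for dentate granule cells and -0.04 to 0.62 for pyramidal and granule neurons. Leaving out box replicate 1 or 3 gave both ends of the range for astrocytes, GABA neurons, and pyramidal and granule neurons. In each of these lists 0 members were called. With a score of glial and vascular markers as a covariate edgeR again called 0 genes. At an unadjusted p under 0.05 were then 844 genes (5.8%), against 1336 (9.19%) without it. The score held no choroid plexus or neuron markers. Beyond this fit the part of these cell types in the other differences was not tested.

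In the total tissue, the lysates of the same numbered mice, the 11 leading higher genes of the purified RNA had log2 fold changes from -0.41 for Wdr18 to -0.05 for Unc45a. Of the 8 leading lower genes, Adam19 was at -0.26 and Ptpn4 at -0.0086 there, and the other 6 were between 0.06 for Picalm and 0.24 for Fam199x. In the lysates edgeR called 0 of 15253 genes (smallest adjusted p 0.798), 354 had an unadjusted p under 0.05, and DESeq2 called 9, all higher after shock. The difference between the fractions, shock against box in purified RNA minus the same in lysates, was called for 0 of 15684 genes (smallest adjusted p 0.404), with 1823 at an unadjusted p under 0.05 and 76 called by DESeq2. In this test edgeR called 5 genes without shock replicate 1 and 2 without shock replicate 2. Across 8243 genes averaging 10 CPM or more the log2 fold changes of the 2 fractions had a Pearson correlation of -0.38 and a Spearman correlation of -0.50, and with GC and length offsets in both fits -0.14 and -0.25. These points share libraries and base composition, and genes are not replicates. Psap was at -0.06 ± 0.15 in the lysates, Pik3r2 at -0.21 ± 0.23, Rps14 at -0.35 ± 0.17 and Apc at 0.24 ± 0.16 on the log2 scale.

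At 60 min, in other mice of the same line (5 shock and 3 box libraries), edgeR called 0 genes for shock against box in the purified RNA, and the difference between the times, 15 min minus 60 min, was called for 0 of 14979 genes. This test came closer to the threshold than the others, with a smallest adjusted p of 0.0722, 3445 genes at an unadjusted p under 0.05 and 1396 called by DESeq2. Leaving out single libraries moved it across the threshold. edgeR called 1311 genes without 15 min shock replicate 1, 664 without 15 min box replicate 1 and 617 without 60 min shock replicate 3, and 0 without any other single library of the shock and box groups. Unc45a was at 1.31 ± 0.38 at 15 min and -0.66 ± 0.24 at 60 min, Sars at 0.61 ± 0.19 and -0.46 ± 0.16, and Sgta at 0.73 ± 0.22 and -0.59 ± 0.19. In the other direction Plaa, a regulator of ubiquitin-dependent degradation, was at -0.72 ± 0.30 at 15 min and 1.36 ± 0.25 at 60 min, and Abhd13 at -0.61 ± 0.24 and 1.02 ± 0.21. The GC classes ran in the opposite order at 60 min, with medians of 0.47, 0.15, -0.14 and -0.33. Across 8067 genes averaging 10 CPM or more r was -0.59 between the times, a description of these libraries only.

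In Pvalb interneurons at 15 min (5 shock and 4 box libraries), shock against box had 0 genes called, and the difference between the lines, Camk2a minus Pvalb, 0 of 15798 (smallest adjusted p 0.957), with 620 at an unadjusted p under 0.05 and 173 called by DESeq2. Without Camk2a shock replicate 3 edgeR called 1 gene. The GC classes had medians of -0.43, -0.19, 0.20 and 0.49, in the same order as in Camk2a neurons, and r across 8067 genes was 0.61. Pik3r2 was at 0.80 ± 0.23 in Camk2a and 0.78 ± 0.23 in Pvalb RNA, Rps14 at 0.94 ± 0.29 and 0.58 ± 0.22, and Apc at -0.70 ± 0.18 and -0.51 ± 0.24. Adam19 was at -1.92 ± 0.42 and 0.82 ± 0.52, a difference of -2.75 ± 0.72 that was not called by edgeR. The times and lines were counted in separate tables, so a difference between tables cannot be told apart from one between times or lines.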

How the data were processed

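Ribosome-bound (purified) and total (lysate) polyA RNA of mouse dorsal hippocampus was sequenced. The authors deposited raw counts for each gene symbol. Nextera XT, the library kit per the labels' protocols, leaves the strand unmarked, so a gene and its antisense or overlapping partner cannot be told apart. The tools and build named in the submitters' processing notes are GRCm38, featureCounts, STAR 2.7.7a and DESeq2. The sources used here do not name the annotation. Of 151 count columns 57 were used, and 94 were not used here.

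Groups and replicate numbers came from the labels. The test was that of edgeR 4.0.16 under R 4.3.3 (filterByExpr, then TMM, robust glmQLFit, glmQLFTest, Benjamini-Hochberg adjustment, threshold 0.05), with the 10 purified libraries in 1 fit that share an estimate of spread. Standard errors are log2 fold changes divided by the square root of F. CPM scale the counts of a library to its total. Differences between fractions, times and lines are interaction contrasts. No pair of libraries of a group agreed within sampling noise (smallest reduced chi-square 39.8). GC content and length came from GENCODE M21 for 93.9% of the tested genes, and offsets were their lowess trends in each library. Sex was called male above 5 CPM of Y-linked genes. Scripts were tested on simulated data.

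The comparison, the 44 gene lists and the tests were chosen with earlier results of these data known. Genes open to naming were the 12 higher and 12 lower with the smallest p and no overlap, up to 6 and 6 of the DESeq2 calls, up to 4 of each list, 3 and 3 of each difference between responses, and a set of well-known activity and marker genes. Clone-named and sex-linked genes were counted, not named. Which of the genes open to naming are described was chosen after their values were seen. The alternatives were DESeq2 1.42.0, other scaling, filters and covariates, GC and length offsets, a replicate block and leaving out each library. Limma 3.58.1 voom with quality weights, the position in the table, a mean of at least 5 CPM, the offsets without shock replicate 4 and the offsets in the lysates were added after seeing the data.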

Additional observations from a re-analysis of the deposited data

Results flagged for a closer look

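In the 4 purified shock libraries, replicate 4 was the highest and stood far from the others for 6 rapid activity genes. The gap to the next library, as a share of the whole range, was 0.987 for Fos, 0.83 for Fosb, 0.915 for Junb, 0.978 for Npas4, 0.988 for Btg2 and 0.971 for Gadd45g, and 0.923 for the mean log2 CPM of the whole rapid activity list. In the 4 shock lysates the same replicate stood apart for 10 genes, all but Nr4a1 of the chosen activity genes that were checked there. The shares were 0.978 for Fos, 0.937 for Fosb, 0.922 for Junb, 0.896 for Arc, 0.986 for Npas4, 0.888 for Egr1, 0.987 for Egr2, 0.971 for Btg2, 0.94 for Gadd45g and 0.98 for Dusp1. For Efcab7 shock replicate 1, at 0.0519 CPM, was the only purified shock library above 0, a share of 1. The limit for 4 samples is Dixon's 95% critical value, which chance exceeds in about 1 in 20 groups of normally distributed values. Only genes open to naming were checked, on CPM without a log scale, and the share of all genes past the limit was not computed.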

How the results depend on the processing

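For shock against box in purified RNA and in lysates edgeR called 0 genes under every edgeR and voom alternative run, the offsets, covariates and filters included, and leaving out each library gave 0 to 0. DESeq2 called 31 and 9 genes in these comparisons, 76 for the difference between fractions, 1396 for that between times and 173 for that between lines, where edgeR called 0. Leaving out each library gave 0 to 5 calls between fractions (5 without shock replicate 1, 2 without shock replicate 2), 0 to 1311 between times (1311 without 15 min shock replicate 1, 664 without 15 min box replicate 1, 617 without 60 min shock replicate 3) and 0 to 1 between lines (1 without 15 min shock replicate 3). The count of genes in the main comparison at an unadjusted p under 0.05 ran from 468 to 2273.

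The replicate numbers did not pair the samples (correlations of shock and box deviations of -0.069, -0.089 and 0.128). With the replicate block 0 genes were called and 535 had an unadjusted p under 0.05. Log2 fold changes that turned round with the replicate block were -0.61 for Fos, -0.30 for Egr2, -0.61 for Btg2 and -0.17 for Dusp1. With the replicate block and the GC and length offsets they were -0.70 for Fos, -0.37 for Junb, -0.41 for Egr2, -0.59 for Btg2, -0.34 for Dusp1, 0.0866 for Homer1 and -0.00382 for Nrgn. With the offsets alone they were -0.0325 for Dusp1, 0.23 for Homer1 and -0.10 for Nrgn. With voom they were -0.28 for Fos, -0.37 for Egr2, -0.0673 for Btg2 and -0.17 for Dusp1. With the offsets and without shock replicate 4 they were -0.72 for Fos, -0.41 for Junb, -0.53 for Egr2, -0.55 for Btg2, -0.27 for Dusp1, 0.11 for Homer1 and -0.0123 for Nrgn. Leaving out each library gave -0.59 to 1.12 for Fos, -0.54 to 2.26 for Btg2, -0.32 to 1.64 for Egr2, -0.0855 to 0.50 for Dusp1, -0.32 to 0.11 for Egr1 and -0.0319 to 0.66 for Camk2a. Another 1301 recomputed gene values kept their direction and side of the threshold, and 6 kept their direction and passed it with DESeq2 (Serpinb1b, Efcab7, Adam19, Spata19, Ankrd22 and Slc25a2). Genes chosen for groups without overlap could hardly turn when a library was left out. Of the list medians recomputed, 855 moved by less than the SD between replicates of the list's mean level and 46 by more. That SD includes shock replicate 4. For the rapid activity list it was 0.78 among shock and 0.25 among box libraries. A change as large as from 0.57 to 0.08, the median of that list without replicate 4, can thus count as less. The 855 are therefore no measure of stability. Where a result changed, the cause was not tested. The depth of shock replicate 4, 9043042 counts, limits what can be said of genes with few counts.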
